A study of Mus musculus with 23 samples.

Results

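The 9 genes described here encode surface ligands and receptors with which macrophages stimulate or restrain T cells and other lymphocytes. They were chosen by name from the gene table, which lists 55401 genes, and all 9 passed the filter on low counts that left 18083 genes for testing. They are Cd40, Cd80, Cd86, Cd274 (PD-L1), Pdcd1lg2 (PD-L2), Icosl, Cd83, Slamf1 and Slamf7. The cells are bone marrow-derived macrophages, that is, macrophages grown in culture from mouse marrow, and their RNA was sequenced. The labelled knock-out groups carry a knock-out of Selenow, the gene of a small selenoprotein, and the wild-type groups do not. Cells of each genotype were collected after 4, 8 or 24 h of lipopolysaccharide (LPS, a bacterial cell wall component sensed by Toll-like receptor 4) at 100 ng/ml, or untreated at 0 h. There are 3 libraries in each of the 8 groups, but 2 for the labelled knock-out after 24 h of LPS. The labels used here do not give strain, age or the design of the knock-out allele. Nor do they say whether replicates are different mice or dishes, and p-values therefore measure the spread between these libraries only. All untreated libraries carry the time 0 h, and LPS and the hours spent in culture cannot be told apart. In bulk RNA, fewer cells of a type and less RNA per cell cannot be told apart.

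T cells need a second signal beside the antigen receptor. CD80 and CD86, members of the B7 family, deliver it through CD28 on the T cell and are also bound by the inhibitory receptor CTLA-4. PD-L1 and PD-L2 bind PD-1 and restrain T cells, and ICOSL binds ICOS, which is induced on activated T cells. CD40 is a receptor of the tumor necrosis factor family by which T cells carrying CD40 ligand activate antigen-presenting cells. CD83 is a surface protein of mature dendritic cells that opposes removal of MHC class II and CD86 by the ubiquitin ligase MARCH1. SLAMF1 and SLAMF7 are self-binding receptors of the SLAM family, and SLAMF1 also takes part in handling of Gram-negative bacteria by macrophages. Genes of this kind are known targets of NF-kB and interferon signalling in macrophages exposed to LPS.

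Some of the members lie next to each other in the genome. On chromosome 19 Cd274 (29367455 to 29388095, plus strand, GRCm38) and Pdcd1lg2 (29410919 to 29471161, plus strand) are separated by 22823 bases, and on chromosome 1 Slamf7 (171632403 to 171653035, minus strand) and Slamf1 (171767127 to 171801184, plus strand) by 114091 bases. Cd80 (38455561 to 38496335, plus strand) and Cd86 (36603869 to 36666081, minus strand) are both on chromosome 16. Icosl is on chromosome 10 (78069302 to 78083913, plus strand), Cd40 on chromosome 2 (165055627 to 165072948, plus strand) and Cd83 on chromosome 13 (43784775 to 43803132, plus strand). RefSeq promoter windows, from 250 bases before to 50 bases after the annotated start on GRCm38.p6, matched 6 members: Cd80, Cd274, Pdcd1lg2, Icosl, Slamf1 and Slamf7. Of these, 4 are shown, 5′ to 3′ on the gene's own strand: the neighbours Cd274 and Pdcd1lg2, which differ widely in level below, and Icosl and Slamf7, which differ in when they peak. Capitals mark matches to the NF-kB consensus or to the AP-1 core TGANTCA, both searched on both strands. The windows are chr19:29367188-29367487 for Cd274, chr19:29410669-29410968 for Pdcd1lg2, chr10:78069118-78069417 for Icosl and, on the minus strand, chr1:171648950-171649249 for Slamf7.
Cd274: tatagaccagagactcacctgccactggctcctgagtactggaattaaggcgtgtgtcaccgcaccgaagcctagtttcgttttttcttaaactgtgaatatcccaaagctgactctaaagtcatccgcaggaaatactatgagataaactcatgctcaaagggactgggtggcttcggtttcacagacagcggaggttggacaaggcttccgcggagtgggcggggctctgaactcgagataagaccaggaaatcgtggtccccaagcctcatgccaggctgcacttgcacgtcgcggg
Pdcd1lg2: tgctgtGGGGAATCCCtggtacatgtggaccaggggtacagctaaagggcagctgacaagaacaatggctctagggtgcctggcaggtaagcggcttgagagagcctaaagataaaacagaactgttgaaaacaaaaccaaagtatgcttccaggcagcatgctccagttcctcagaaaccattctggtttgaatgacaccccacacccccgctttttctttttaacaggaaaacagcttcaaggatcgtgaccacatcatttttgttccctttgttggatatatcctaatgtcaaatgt
Icosl: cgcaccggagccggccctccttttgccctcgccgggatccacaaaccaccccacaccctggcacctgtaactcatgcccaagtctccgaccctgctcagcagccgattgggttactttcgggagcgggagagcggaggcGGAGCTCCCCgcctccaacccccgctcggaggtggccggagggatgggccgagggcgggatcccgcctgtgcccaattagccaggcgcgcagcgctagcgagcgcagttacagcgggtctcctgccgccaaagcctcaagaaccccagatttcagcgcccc
Slamf7: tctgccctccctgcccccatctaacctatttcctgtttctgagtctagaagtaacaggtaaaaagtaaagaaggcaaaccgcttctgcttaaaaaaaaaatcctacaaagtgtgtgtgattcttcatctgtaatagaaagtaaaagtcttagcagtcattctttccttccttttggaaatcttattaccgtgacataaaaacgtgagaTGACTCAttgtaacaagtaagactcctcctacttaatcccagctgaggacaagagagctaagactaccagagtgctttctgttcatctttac
In the Pdcd1lg2 window the NF-kB consensus lies at -244 to -235 from the start, and in the Icosl window at -111 to -102 on the opposite strand. The AP-1 core lies at -42 to -36 in the Slamf7 window and at the same positions, -42 to -36, in the window of Cd80. Both windows lie wholly inside the gene spans given above. For these genes the annotations differ in the start, and positions refer to the RefSeq start. The Cd274 and Slamf1 windows hold neither motif. None of the 6 windows holds the interferon-type core GAAANNGAAA or the STAT-type core TTCNNNGAA. Of 32851 mouse promoter windows of the same length, 8.46% hold the NF-kB consensus, 7.81% the AP-1 core, 3.44% GAAANNGAAA and 8.3% TTCNNNGAA. A match describes letters only, and no match says only that these letters are not in the window.

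The libraries held 39001456 to 41819953 counted fragments each. Levels are given as CPM, which are counts divided by library size after scaling for library composition. Where a gene has a count of 0, its level may still be as high as 0.0769 CPM before that scaling. This limit covers counting error only, and on the scaled levels given here it differs from that value. Selenow, the targeted gene, was at 39.4 to 260 CPM in labelled knock-out libraries, against 103 to 327 CPM in wild-type libraries. Libraries 13, 16, 19 and 22, labelled knock-out at 0, 4, 8 and 24 h, had 106, 191, 260 and 181 CPM, near the wild-type levels of the same times. The other labelled knock-out libraries had 39.4 to 135 CPM. A second division was found in the data without the members. At each time, 1 labelled knock-out and 1 wild-type library deviated most alike from their groups' means. These were 14 and 3 at 0 h, 17 and 6 at 4 h, and 20 and 9 at 8 h. At 24 h they were 23 and 12. Libraries of different times were not compared, and whether these pairs belong together was not tested. The correlations of their deviations were 0.707 to 0.774, the highest among all pairs of the genotypes at each time. The pairs were chosen by these values, which are therefore no separate support for the division. With 2 labelled knock-out libraries at 24 h, their deviations mirror each other. Library 12 gave -0.707 with library 22 and 0.707 with library 23. Below, these 8 form the second library set, and the remaining 15 make up the first set. Libraries 13, 16, 19 and 22 are all in the first set. Fits without these 4 leave 1 labelled knock-out library at 24 h, 23, and the first set leaves 1, 22. In such fits the single library is assumed to vary like the other groups. The summed level of 8 macrophage markers was 14400 to 28000 CPM in labelled knock-out libraries and 12800 to 25900 CPM in wild-type libraries.

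In untreated macrophages the 9 transcripts were at very different levels. Per kilobase of exon, Cd83 and Slamf7 were the most abundant, at 16 ± 4.52 and 12.9 ± 6.6 CPM per kb in the labelled knock-out and 13.9 ± 5.49 and 9.84 ± 3.13 CPM per kb in the wild type (SD, n = 3 each). The libraries of these 2 genes overlapped. Icosl followed at 6 ± 1.16 CPM per kb in the labelled knock-out and 5.57 ± 0.986 CPM per kb in the wild type, overlapping Slamf7 above it and apart from the gene below it. Cd86, Cd274 and Cd40 were at 2.36 to 3.35 CPM per kb in either genotype and overlapped each other, apart from Icosl above them and Cd80 below them. Cd80 was at 0.916 ± 0.24 and 0.594 ± 0.207 CPM per kb, in the labelled knock-out and the wild type. Pdcd1lg2 and Slamf1 were close to the limit of detection. Over all 3 untreated libraries of a group Pdcd1lg2 had 9 fragments in the labelled knock-out and 6 in the wild type, and Slamf1 had 11 and 4. After 4 h of LPS the order was led by Cd40, at 334 ± 19.7 CPM per kb in the labelled knock-out and 296 ± 9.74 CPM per kb in the wild type. Cd274, Slamf7 and Cd83 followed, each apart from the next. After 8 h Cd40, Slamf7 and Cd274 overlapped, at 160 to 207 CPM per kb in the labelled knock-out and 220 to 254 CPM per kb in the wild type. After 24 h Cd274 was highest in mean level, at 67.3 ± 27 CPM per kb in the labelled knock-out (n = 2) and 139 ± 101 CPM per kb in the wild type. Its libraries overlapped those of Slamf7.

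**Figure D1:**
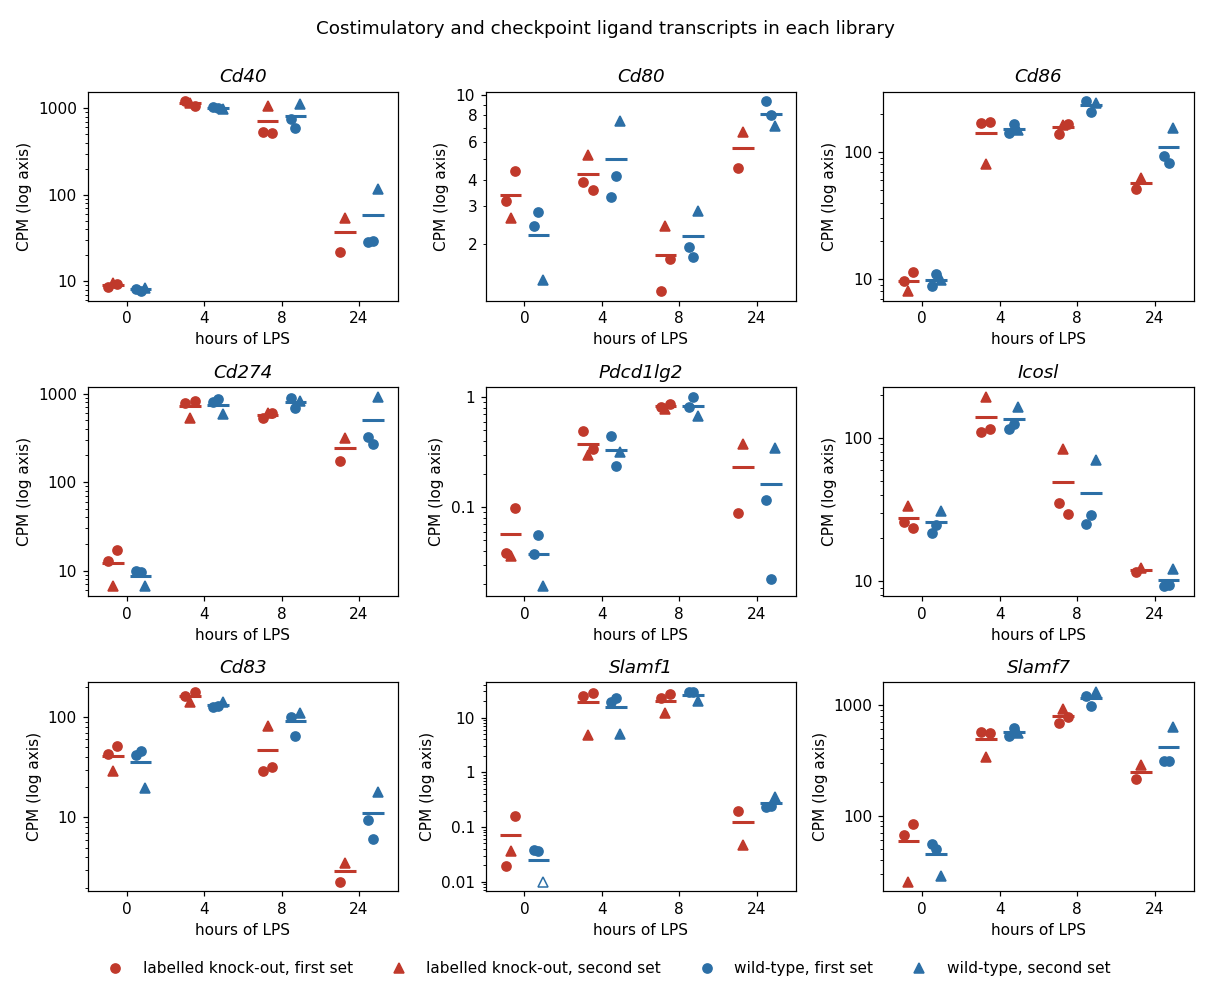
Level of each of the 9 genes in every library, in CPM on a log axis, by hours of LPS, with the labelled knock-out left of the wild type at each time. Circles are libraries of the first set, triangles libraries of the second set, bars are group means, and the open triangle is a count of 0 drawn at 0.01 CPM. Cd40 had 8.57 to 9.58 CPM untreated and 1070 to 1210 CPM at 4 h in the labelled knock-out.

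At 4 h of LPS, 8 of the 9 genes rose in the labelled knock-out and all 9 rose in the wild type, and none fell (edgeR quasi-likelihood test, adjusted p under 0.05 over all 18083 genes). Over all genes tested, 28% were called higher and 34.1% lower in the labelled knock-out, and 28.2% higher and 34.8% lower in the wild type. The median log2 fold change of the members was 3.07 in the labelled knock-out and 3.66 in the wild type, beside medians over all genes of -0.1 and -0.12. At 8 h, 6 members were higher and 1 was lower than untreated in the labelled knock-out (all genes 28.3% and 31.9%), and 7 were higher and 0 lower in the wild type (30.3% and 35.1%). At 24 h, 5 were higher and 2 lower in the labelled knock-out (22.6% and 20.8%), and 7 were higher and 2 lower in the wild type (27.8% and 27.3%). Between 4 and 8 h, 0 rose and 3 fell in the labelled knock-out (24.4% and 22.8% of all genes), and 3 rose and 2 fell in the wild type (24% and 22.8%). Between 8 and 24 h, 1 rose and 8 fell in the labelled knock-out (17.9% and 16.8%), and 1 rose and 7 fell in the wild type (23.1% and 21.9%). The comparisons with 0 h share the same untreated libraries within a genotype.

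**Figure D2:**
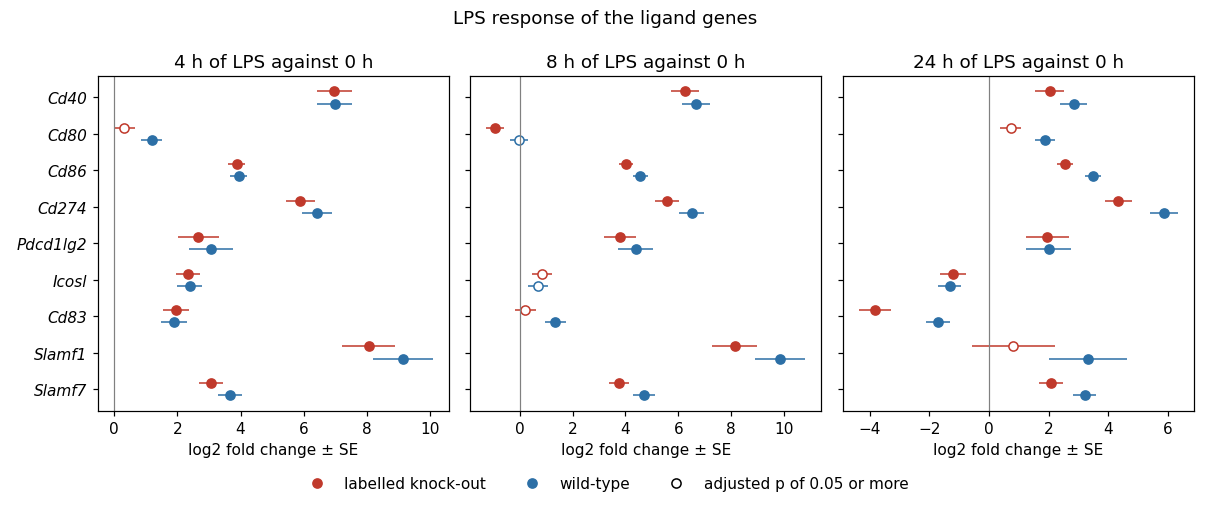
Log2 fold change of each gene after 4, 8 and 24 h of LPS against untreated cells, with its standard error, labelled knock-out above wild type in each row; open points did not pass an adjusted p under 0.05. At 4 h all values lie right of 0, and at 24 h Icosl and Cd83 lie left of it in either genotype.

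Cd40, the receptor for CD40 ligand, had a steep early rise. Cd40 had 8.57, 9.58 and 9.26 CPM at 0 h, 1210, 1140 and 1070 CPM at 4 h, 537, 1060 and 515 CPM at 8 h, and 21.5 and 53.7 CPM at 24 h in the labelled knock-out. Wild-type libraries had 8.11, 7.7 and 8.3 CPM at 0 h, 1040, 1010 and 974 CPM at 4 h, 751, 595 and 1110 CPM at 8 h, and 28.5, 29.2 and 116 CPM at 24 h. All libraries with LPS lay above all untreated libraries of their genotype. The high values at 8 and 24 h are those of the second library set. The log2 fold change at 4 h against 0 h was 6.96 ± 0.55 in the labelled knock-out (SE, adjusted p = 3.39e-09, edgeR) and 6.97 ± 0.55 in the wild type (adjusted p = 3.3e-09). From 8 to 24 h Cd40 fell by 4.23 ± 0.58 on the log2 scale in the labelled knock-out (adjusted p = 2.99e-05) and fell by 3.82 ± 0.47 in the wild type (adjusted p = 5.42e-06). It was still above the untreated level at 24 h, by 2.04 ± 0.48 in the labelled knock-out (adjusted p = 0.00198) and 2.84 ± 0.46 in the wild type (adjusted p = 4e-05). These 24 h values rest partly on the second set. Without library 23 the labelled knock-out value was 1.24 (adjusted p = 0.099), where a single library is assumed to vary like the other groups. Without library 12 the wild-type value was 1.84 (adjusted p = 0.000148).

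Cd86 and Cd80, the B7 ligands of CD28 and CTLA-4, did not follow the same course. Cd86 in the labelled knock-out had 9.56, 8.04 and 11.3 CPM at 0 h, 169, 80.8 and 172 CPM at 4 h, 138, 164 and 166 CPM at 8 h, and 51 and 62.6 CPM at 24 h. Wild-type libraries had 8.74, 11 and 9.82 CPM at 0 h, 141, 165 and 149 CPM at 4 h, 251, 205 and 241 CPM at 8 h, and 92.8, 82.3 and 155 CPM at 24 h. Every library with LPS was above every untreated library. Against 0 h, Cd86 rose by 3.87 ± 0.27 in the labelled knock-out and 3.94 ± 0.27 in the wild type at 4 h, by 4.02 ± 0.27 and 4.56 ± 0.28 at 8 h, and by 2.56 ± 0.27 and 3.48 ± 0.27 at 24 h (log2, edgeR, all adjusted p at or below 6.83e-07). Between 4 and 8 h the change was 0.15 ± 0.24 in the labelled knock-out (adjusted p = 0.631) and 0.62 ± 0.24 in the wild type (adjusted p = 0.0424). That wild-type call was lost without any of libraries 4, 5, 6, 7, 9 and 13 (0.56 to 0.68, adjusted p = 0.0503 to 0.113), with upper-quartile scaling (0.59, adjusted p = 0.0528), and without libraries 13, 16, 19 and 22 (0.62, adjusted p = 0.0655). Between 8 and 24 h Cd86 fell by 1.46 ± 0.28 in the labelled knock-out (adjusted p = 0.000708) and fell by 1.08 ± 0.24 in the wild type (adjusted p = 0.00147).

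Cd80 stayed at a low level throughout and had its highest mean at 24 h. Cd80 had 3.17, 2.63 and 4.37 CPM at 0 h, 3.92, 5.22 and 3.57 CPM at 4 h, 1.2, 2.42 and 1.7 CPM at 8 h, and 4.56 and 6.68 CPM at 24 h in the labelled knock-out. Wild-type libraries had 2.43, 2.82 and 1.35 CPM at 0 h, 3.31, 4.17 and 7.55 CPM at 4 h, 1.93, 1.73 and 2.85 CPM at 8 h, and 9.34, 8.06 and 7.11 CPM at 24 h. At 24 h every library of either genotype lay above all untreated libraries of that genotype. Against 0 h the log2 change at 24 h was 0.73 ± 0.36 in the labelled knock-out (adjusted p = 0.107) and 1.89 ± 0.33 in the wild type (adjusted p = 9.97e-05, edgeR). Cd80 was the only member that rose between 8 and 24 h, by 1.66 ± 0.37 in the labelled knock-out (adjusted p = 0.00201) and 1.91 ± 0.34 in the wild type (adjusted p = 0.000188). Between 4 and 8 h it fell by 1.26 ± 0.34 in the labelled knock-out (adjusted p = 0.00535) and fell by 1.21 ± 0.34 in the wild type (adjusted p = 0.00658). Library 6 bears on the wild-type values at 4 h. The fold change at 4 h against 0 h was 1.19 ± 0.33 with all libraries (adjusted p = 0.00429) and 0.77 without library 6 (adjusted p = 0.0517). Within the first library set it was 0.54 (adjusted p = 0.0227). Without library 6 the change between 4 and 8 h was -0.79 (adjusted p = 0.0677). In the labelled knock-out Cd80 at 8 h was below 0 h by -0.93 ± 0.34 (adjusted p = 0.0232), a call lost without any of libraries 15, 19 and 21 (-0.91 to -0.71, adjusted p = 0.061 to 0.109). Without libraries 13, 16, 19 and 22 together this change was -0.76 (adjusted p = 0.153) and that between 4 and 8 h -1.09 (adjusted p = 0.0655).

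Cd274, which encodes PD-L1, was among the highest members at every time after LPS. Cd274 had 12.7, 6.65 and 17.1 CPM at 0 h, 791, 532 and 830 CPM at 4 h, 523, 607 and 603 CPM at 8 h, and 175 and 313 CPM at 24 h in the labelled knock-out. Wild-type libraries had 9.88, 9.67 and 6.64 CPM at 0 h, 798, 860 and 584 CPM at 4 h, 881, 693 and 816 CPM at 8 h, and 319, 268 and 926 CPM at 24 h. No library with LPS came near the untreated range. At 24 h the wild-type library of the second set, 12, stands above the rest. Against 0 h Cd274 rose by 5.89 ± 0.47 in the labelled knock-out and 6.42 ± 0.48 in the wild type at 4 h, by 5.57 ± 0.46 and 6.51 ± 0.48 at 8 h, and by 4.33 ± 0.45 and 5.85 ± 0.47 at 24 h (log2, edgeR, all adjusted p at or below 5.81e-07). Its change between 8 and 24 h was -1.24 ± 0.44 in the labelled knock-out (adjusted p = 0.036) and -0.66 ± 0.38 in the wild type (adjusted p = 0.17). The labelled knock-out call was lost without any of libraries 20, 21 and 22 (-1.21 to -0.88, adjusted p = 0.0677 to 0.294) and without libraries 13, 16, 19 and 22 (-0.95, adjusted p = 0.356). A call was gained in the wild type without library 12 (-1.44, adjusted p = 0.0016). Counting ignored strand, and Cd274 shares 511 exonic bases with AC119228.1 on the opposite strand, where reads of the 2 cannot be told apart. AC119228.1 had 107992 fragments over all libraries, 28.2% of the 383465 of Cd274.

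Pdcd1lg2, the neighbouring gene that encodes PD-L2, rose from a few fragments a library and stayed near 1 CPM or below. Pdcd1lg2 had 0.0382, 0.0358 and 0.0985 CPM at 0 h, 0.494, 0.298 and 0.339 CPM at 4 h, 0.826, 0.78 and 0.879 CPM at 8 h, and 0.0881 and 0.375 CPM at 24 h in the labelled knock-out. Wild-type libraries had 0.0374, 0.0554 and 0.019 CPM at 0 h, 0.448, 0.236 and 0.318 CPM at 4 h, 0.812, 1.02 and 0.677 CPM at 8 h, and 0.116, 0.0223 and 0.347 CPM at 24 h. The groups at 4 and 8 h lie above the untreated libraries of their genotype, and those at 24 h overlap them. At its peak it had 29 to 32 fragments a library in the labelled knock-out and 23 to 36 in the wild type. Against 0 h the log2 fold change was 2.66 ± 0.65 in the labelled knock-out (adjusted p = 0.00156) and 3.06 ± 0.7 in the wild type (adjusted p = 0.000843) at 4 h, and 3.8 ± 0.61 (adjusted p = 2.99e-05) and 4.38 ± 0.65 (adjusted p = 1.02e-05) at 8 h (edgeR). At 24 h it was 1.96 ± 0.73 in the labelled knock-out (adjusted p = 0.0366) and 2 ± 0.75 in the wild type (adjusted p = 0.0308). These calls depend on single libraries: the labelled knock-out call was lost without any of 13, 14 and 23 (0.61 to 1.75, adjusted p = 0.1 to 0.691), and the wild-type call without any of 1, 3 and 12 (0.82 to 2, adjusted p = 0.0685 to 0.422). Within the first library set the 24 h values were 0.37 in the labelled knock-out (adjusted p = 0.767) and 0.56 in the wild type (adjusted p = 0.594). From 4 to 8 h the change was 1.14 ± 0.51 in the labelled knock-out (adjusted p = 0.0733) and 1.32 ± 0.51 in the wild type (adjusted p = 0.0418). The wild-type call was lost without any of libraries 5, 6, 7 and 8 (1.13 to 1.34, adjusted p = 0.0745 to 0.131) and with no filter on low counts (1.3, adjusted p = 0.0558). From 8 to 24 h Pdcd1lg2 fell by 1.84 ± 0.6 in the labelled knock-out (adjusted p = 0.0235) and fell by 2.38 ± 0.55 in the wild type (adjusted p = 0.00179). The labelled knock-out value was -1.13 without library 22 (adjusted p = 0.261), -1.14 without libraries 13, 16, 19 and 22 (adjusted p = 0.353) and -3.19 without library 23 (adjusted p = 0.0109). Within the first set the 2 falls were -3.25 in the labelled knock-out (adjusted p = 0.000973) and -3.71 in the wild type (adjusted p = 2.76e-05).

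Icosl, the ligand of ICOS, had an early and short rise and ended below its starting level. Icosl had 26, 33.7 and 23.5 CPM at 0 h, 109, 194 and 116 CPM at 4 h, 34.9, 83.5 and 29.3 CPM at 8 h, and 11.6 and 12.4 CPM at 24 h in the labelled knock-out. Wild-type libraries had 21.8, 24.7 and 30.7 CPM at 0 h, 115, 125 and 165 CPM at 4 h, 25.2, 29.2 and 70.2 CPM at 8 h, and 9.22, 9.44 and 12.2 CPM at 24 h. At 8 h the first-set libraries of either genotype were within or near the untreated range, while the second-set libraries were well above it. Against 0 h Icosl rose at 4 h by 2.34 ± 0.39 in the labelled knock-out (adjusted p = 3.43e-05) and 2.39 ± 0.39 in the wild type (adjusted p = 2.62e-05, edgeR, log2). At 8 h the change was 0.83 ± 0.37 in the labelled knock-out (adjusted p = 0.0623) and 0.69 ± 0.37 in the wild type (adjusted p = 0.111). These became calls within the first library set, at 0.41 in the labelled knock-out (adjusted p = 0.00291) and 0.27 in the wild type (adjusted p = 0.0336). They also became calls without library 9, 19 or 21 in the labelled knock-out (0.83 to 1.09, adjusted p = 0.0222 to 0.0382) and without library 7 in the wild type (0.95, adjusted p = 0.0427). The values were 0.21 in the labelled knock-out without library 20 (adjusted p = 0.622) and 0.08 in the wild type without library 9 (adjusted p = 0.853), both of the second set. At 24 h it was below 0 h by -1.21 ± 0.43 in the labelled knock-out (adjusted p = 0.0308) and by -1.32 ± 0.38 in the wild type (adjusted p = 0.00648). The labelled knock-out call was lost without any of libraries 14, 22 and 23 (-1.25 to -1.04, adjusted p = 0.0813 to 0.135) and without libraries 13, 16, 19 and 22 (-1.2, adjusted p = 0.17). Between 4 and 8 h Icosl fell by 1.51 ± 0.38 in the labelled knock-out (adjusted p = 0.00288) and fell by 1.7 ± 0.38 in the wild type (adjusted p = 0.00123). Between 8 and 24 h it fell by 2.04 ± 0.45 in the labelled knock-out (adjusted p = 0.00201) and fell by 2.01 ± 0.39 in the wild type (adjusted p = 0.000397).

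Cd83, the partner of MHC class II and CD86 at the surface, also rose early and then fell below its untreated level. Cd83 had 42.9, 28.7 and 51.8 CPM at 0 h, 163, 141 and 178 CPM at 4 h, 29.3, 81.3 and 31.7 CPM at 8 h, and 2.29 and 3.54 CPM at 24 h in the labelled knock-out. Wild-type libraries had 41.8, 46.1 and 19.7 CPM at 0 h, 127, 130 and 141 CPM at 4 h, 101, 64.2 and 109 CPM at 8 h, and 9.34, 6.09 and 17.8 CPM at 24 h. At 8 h all wild-type libraries were above the untreated ones, whereas in the labelled knock-out only library 20, of the second set, was. At 24 h all libraries of either genotype were below the untreated ones. Against 0 h the log2 change at 4 h was 1.97 ± 0.41 in the labelled knock-out (adjusted p = 0.00038) and 1.89 ± 0.41 in the wild type (adjusted p = 0.000529, edgeR). At 8 h it was 0.21 ± 0.4 in the labelled knock-out (adjusted p = 0.669) and 1.35 ± 0.4 in the wild type (adjusted p = 0.00666). The labelled knock-out value was -0.43 without library 20 (adjusted p = 0.352) and -0.6 within the first library set (adjusted p = 0.00856). At 24 h it was -3.82 ± 0.54 in the labelled knock-out (adjusted p = 1.81e-05) and -1.7 ± 0.41 in the wild type (adjusted p = 0.00191). Between 4 and 8 h the change was -1.76 ± 0.41 in the labelled knock-out (adjusted p = 0.00163) and -0.54 ± 0.4 in the wild type (adjusted p = 0.283). Between 8 and 24 h it was -4.02 ± 0.55 in the labelled knock-out (adjusted p = 2.97e-05) and -3.05 ± 0.43 in the wild type (adjusted p = 2.16e-05).

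Slamf1 and Slamf7, the self-binding receptors, differed in how long they stayed high. Slamf1 in the labelled knock-out had 0.0191, 0.0358 and 0.158 CPM at 0 h, 25.1, 4.79 and 27.9 CPM at 4 h, 22.3, 12.2 and 26.5 CPM at 8 h, and 0.198 and 0.0469 CPM at 24 h. Wild-type libraries had 0.0374, 0.0369 and 0 CPM at 0 h, 19.2, 22.8 and 5 CPM at 4 h, 28.8, 29.4 and 19.9 CPM at 8 h, and 0.232, 0.246 and 0.347 CPM at 24 h. At 4 and 8 h no library of either genotype came near the untreated range. The low values at those times are those of the second library set. Against 0 h Slamf1 rose by 8.05 ± 0.84 in the labelled knock-out and 9.13 ± 0.94 in the wild type at 4 h, and by 8.13 ± 0.84 and 9.86 ± 0.94 at 8 h (log2, edgeR, all adjusted p at or below 1.5e-07). The untreated level behind these folds is 11 fragments over the labelled knock-out libraries and 4 over the wild-type libraries, so their size is loosely fixed. Between 8 and 24 h Slamf1 fell by 7.32 ± 0.95 in the labelled knock-out (adjusted p = 1.98e-05) and fell by 6.56 ± 0.73 in the wild type (adjusted p = 1.84e-06). At 24 h against 0 h the value was 0.82 ± 1.39 in the labelled knock-out (adjusted p = 0.671) and 3.31 ± 1.31 in the wild type (adjusted p = 0.0394). The wild-type call was lost without any single library of the 2 groups, 1, 2, 3, 10, 11 or 12 (2.78 to 3.67, adjusted p = 0.054 to 0.116). The labelled knock-out value at 24 h changed sign without library 22 (-0.53, adjusted p = 0.888).

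Slamf7 was already expressed in untreated cells and remained high at 24 h. Slamf7 had 67.1, 25.4 and 84.1 CPM at 0 h, 575, 342 and 560 CPM at 4 h, 681, 926 and 782 CPM at 8 h, and 213 and 287 CPM at 24 h in the labelled knock-out. Wild-type libraries had 56.2, 50.1 and 28.9 CPM at 0 h, 520, 623 and 561 CPM at 4 h, 1190, 977 and 1310 CPM at 8 h, and 312, 309 and 634 CPM at 24 h. Every library with LPS was above every untreated library. Against 0 h Slamf7 rose by 3.07 ± 0.38 in the labelled knock-out and 3.66 ± 0.39 in the wild type at 4 h, by 3.76 ± 0.39 and 4.69 ± 0.41 at 8 h, and by 2.08 ± 0.39 and 3.21 ± 0.38 at 24 h (log2, edgeR, all adjusted p at or below 0.000315). Between 4 and 8 h the change was 0.69 ± 0.35 in the labelled knock-out (adjusted p = 0.117) and 1.03 ± 0.36 in the wild type (adjusted p = 0.0235). The wild-type call was lost without any of libraries 4, 6, 7 and 9 (0.94 to 1.02, adjusted p = 0.054 to 0.0703). From 8 to 24 h Slamf7 fell by 1.67 ± 0.42 in the labelled knock-out (adjusted p = 0.00495) and fell by 1.47 ± 0.36 in the wild type (adjusted p = 0.00281). The labelled knock-out value was -1.47 without library 22 (adjusted p = 0.0759) and -1.57 without libraries 13, 16, 19 and 22 (adjusted p = 0.114). Slamf7 shares 423 exonic bases with Gm37787 on the opposite strand, which had 57965 fragments over all libraries, 14.2% of the 407459 of Slamf7.

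Between the genotypes, no member was called at any single time or on average over the 4 times in the fit of group means over all libraries (edgeR, adjusted p under 0.05). Of all genes, 1.52%, 1.24%, 2.2% and 1.19% were called at 0, 4, 8 and 24 h and 6.27% on average. At an unadjusted p under 0.05, 0, 0, 2 and 3 members passed at those times and 2 on average, beside 12.2%, 7.25%, 13.6%, 11.7% and 18.6% of all genes. With a term for the library set, edgeR called Cd83 at 24 h (-1.94, adjusted p = 0.0455), beside 2.61% of all genes. That fit also called Cd86 on average (-0.42, adjusted p = 0.0434), beside 9.53% of all genes. With no filter on low counts, Cd83 was called at 24 h (-1.93, adjusted p = 0.0254), beside 0.65% of all genes, and Cd86 on average (-0.42, adjusted p = 0.037), beside 3.01%. DESeq2 called 2 members at 24 h, Cd83 (adjusted p = 0.00328) and Cd86 (adjusted p = 0.04), beside 2.41% of all genes. It called 1 on average, Cd86 (adjusted p = 0.03), beside 7.11% of all genes. At 0, 4 and 8 h it called 0 members, beside 3.19%, 1.37% and 3.55% of all genes. No member was called for a genotype by LPS interaction at 4, 8 or 24 h or jointly, where 0.0442%, 0.0442%, 0% and 0.111% of all genes were called. The lowest adjusted p of a member, that of Cd83, was 0.306 at 24 h and 0.366 jointly. For the interactions 0, 0 and 5 members passed an unadjusted p of 0.05 at 4, 8 and 24 h and 1 passed jointly, beside 3.95%, 11.3%, 10.1% and 8.86% of all genes. DESeq2 called 0 in each, beside 0.188%, 1.22%, 0.868% and 1.57% of all genes. A difference in LPS response between the genotypes was therefore not shown for any member with all libraries.

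At 8 and 24 h the labelled knock-out means of Cd40, Cd80, Cd86, Cd274, Cd83, Slamf1 and Slamf7 were below those of the wild type. Means of Cd40, Cd80 and Slamf1 were 86.3%, 81.8% and 78.2% of the wild-type mean at 8 h. At 24 h they were 65.1%, 68.8% and 44.6%. Pdcd1lg2 was at 99% and 143% at these times. Cd86, Cd274, Cd83 and Slamf7 are followed in more detail, after their values were seen. All labelled knock-out libraries of Cd86, Cd274 and Slamf7 lay below all wild-type libraries at 8 h, with means of 67.2%, 72.5% and 68.6% of the wild-type mean, and 10.1% of all genes were separated in this direction. At 24 h Cd80, Cd86, Cd83, Slamf1 and Slamf7 were separated in this direction, beside 15.5% of all genes. At 24 h the labelled knock-out mean was 51.6% of the wild-type mean for Cd86, 26.3% for Cd83, 48.3% for Cd274 and 59.7% for Slamf7. The log2 fold change of Cd86 was -0.57 ± 0.24 at 8 h (adjusted p = 0.284), -0.95 ± 0.28 at 24 h (adjusted p = 0.12) and -0.42 ± 0.13 on average (adjusted p = 0.0544). That of Cd83 was -0.95 ± 0.4 at 8 h (adjusted p = 0.288), -1.93 ± 0.5 at 24 h (adjusted p = 0.0755) and -0.6 ± 0.21 on average (adjusted p = 0.109). That of Cd274 was -0.46 ± 0.38 at 8 h (adjusted p = 0.659) and -1.05 ± 0.44 at 24 h (adjusted p = 0.351). That of Slamf7 was -0.54 ± 0.35 at 8 h (adjusted p = 0.544) and -0.74 ± 0.4 at 24 h (adjusted p = 0.493). Single libraries decide some of these calls. Without library 20 Cd83 was called at 8 h (-1.59, adjusted p = 0.0403) and on average (-0.76, adjusted p = 0.0173). Without library 11 or 20 it was called at 24 h (-2.22 to -1.93, adjusted p = 0.0283 to 0.0297). Without library 17 Cd86 was called at 24 h (-0.95, adjusted p = 0.0309), and without any of libraries 11, 16, 17 and 18 on average (-0.46 to -0.35, adjusted p = 0.03 to 0.0451). Wild-type library 12, of the second set, bears on the sizes at 24 h: without it the value was -0.28 for Cd274 (adjusted p = 0.949), -0.32 for Slamf7 (adjusted p = 0.945) and -0.63 for Cd86 (adjusted p = 0.429). Without library 22 that of Cd274 was -0.69 (adjusted p = 0.871). In the opposite direction, all labelled knock-out libraries of Cd40 lay above the wild-type ones at 0 h, beside 10.6% of all genes, and those of Cd40 and Cd83 at 4 h, beside 6.98% of all genes. Icosl overlapped between the genotypes at every time, with labelled knock-out means of 108%, 104%, 119% and 117% of the wild-type means at 0, 4, 8 and 24 h.

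Within the library sets Cd86, Cd274, Cd83 and Slamf7 had the same sign at 8 and 24 h. The sets are parts of the libraries from which these genes were picked, so this is no separate support. Cd40, Cd80 and Slamf1 were also lower in the labelled knock-out in either set. Their second-set log2 ratios were -0.05, -0.24 and -0.7 at 8 h and -1.11, -0.09 and -2.89 at 24 h. In the second set, 1 library against 1 with no test, the log2 ratio of labelled knock-out to wild type at 8 h was -0.56 for Cd86, -0.43 for Cd274, -0.43 for Cd83 and -0.5 for Slamf7, and at 24 h it was -1.31, -1.56, -2.33 and -1.15. In the first set alone, edgeR called 5 members lower at 8 h, beside 14.5% of all genes in either direction. They were Cd83 (-1.45, adjusted p = 8.19e-05), Cd86 (-0.59, adjusted p = 0.00561), Slamf7 (-0.58, adjusted p = 0.00472), Cd274 (-0.49, adjusted p = 0.0197) and Cd40 (-0.36, adjusted p = 0.0205). At 24 h the first set also gave 5, beside 5.46% of all genes: Cd83 (-1.76, adjusted p = 0.00307), Cd80 (-0.94, adjusted p = 0.0214), Cd86 (-0.79, adjusted p = 0.00882), Cd274 (-0.76, adjusted p = 0.0125) and Slamf7 (-0.56, adjusted p = 0.045). That comparison at 24 h has a single labelled knock-out library, 22, assumed to vary like the other groups. At 0 h the first set gave 2 higher members, Cd274 (0.61, adjusted p = 0.0234) and Slamf7 (0.51, adjusted p = 0.0241), beside 6.56% of all genes, and at 4 h it gave 0, beside 3.69%. On average it gave 2 lower members, Cd83 (-0.67, adjusted p = 0.000612) and Cd86 (-0.28, adjusted p = 0.0134), beside 13.3%. The interaction in the first set was called for 0, 5 and 5 members at 4, 8 and 24 h and jointly for 6, beside 0.372%, 9.12%, 4.31% and 9.92% of all genes. At 8 h the difference in log2 response, labelled knock-out minus wild type, was -1.56 for Cd83 (adjusted p = 0.00317), -1.1 for Cd274 (adjusted p = 0.00538), -1.09 for Slamf7 (adjusted p = 0.00283), -0.67 for Cd86 (adjusted p = 0.0412) and -0.54 for Cd40 (adjusted p = 0.0362). At 24 h the 5 were Cd83, Cd80, Cd274, Slamf7 and Cd86, at -1.87 to -0.87 (adjusted p = 0.00394 to 0.0336). Because the sets were found in the same data, these p-values may be too small. The first set also holds all 4 labelled knock-out libraries with near wild-type Selenow, and without those 4 libraries 0 members were called between genotypes, beside 0.604%, 0.77%, 0.957% and 0.497% of all genes at 0, 4, 8 and 24 h and 3.16% on average. That smaller fit has a single labelled knock-out library at 24 h, 23, and fewer labelled knock-out libraries at the other times. Fewer libraries and the omission of those with near wild-type Selenow cannot be told apart here. In that fit the log2 fold changes at 8 and 24 h were -0.49 and -0.81 for Cd86, -0.4 and -0.69 for Cd274, -0.7 and -1.64 for Cd83, and -0.44 and -0.54 for Slamf7. At 8 h library 19, with 260 CPM of Selenow, had 29.3 CPM of Cd83 and 138 CPM of Cd86. Library 21, with 125 CPM of Selenow, had 31.7 CPM of Cd83 and 166 CPM of Cd86. Library 20, of the second set, with 135 CPM of Selenow, had 81.3 CPM of Cd83 and 164 CPM of Cd86. A relation between the levels of Selenow and of these genes was not tested. Neutrophil transcripts were higher in sum in every labelled knock-out library than in every wild-type library of the same time. Their summed level over 8 markers was 174 to 175 CPM in the labelled knock-out and 98.5 to 114 CPM in the wild type at 0 h. At 24 h it was 16.3 to 19 CPM in the labelled knock-out and 5.25 to 7.83 CPM in the wild type, with none of the markers at 0. The summed level of the 8 macrophage markers at 24 h was 27500 to 28000 CPM in the labelled knock-out and 16000 to 25900 CPM in the wild type, with no overlap. Of all genes, 16% were separated in this direction at 24 h. Most of the mean sum was Lyz2, at 17400 ± 1350 CPM in the labelled knock-out (SD, n = 2) and 11900 ± 5150 CPM in the wild type (n = 3). Means of Adgre1, Csf1r, Itgam and Mertk were also higher in the labelled knock-out, and those of Cd68, Fcgr1 and Cd14 lower. The part of either list in the differences of the ligand genes was not tested.

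**Figure D3:**
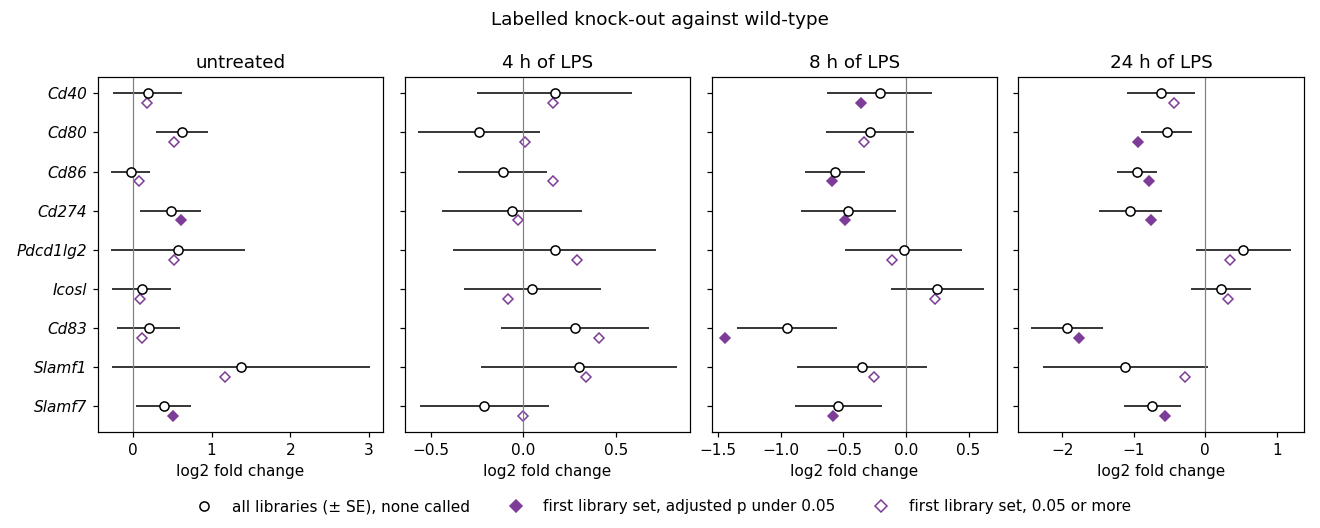
Log2 fold change of labelled knock-out against wild type for each gene and time, with all libraries (circles, with standard error, none called) and within the first library set (diamonds, filled where the adjusted p is under 0.05). At 8 and 24 h the circles of Cd86, Cd274, Cd83 and Slamf7 lie left of 0, at -0.46 to -0.95 and -0.74 to -1.93. Those of Cd40, Cd80 and Slamf1 also lie left of 0, at -0.21 to -0.35 and -0.54 to -1.12.

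The second-set libraries lay above or below the first-set libraries of their own group, depending on the gene and the time. For Icosl the second-set library was above all first-set libraries in 8 of 8 groups, at 1.06 to 2.6 times their mean, and for Cd40 in 6 of 8, at 0.949 to 4 times. Slamf1 was below in 6 of 8 groups, at 0 to 1.45 times. For Cd274, Pdcd1lg2, Cd83 and Slamf7 the second-set library was below the first-set libraries at 0 h and above them at 24 h in both genotypes. Pdcd1lg2 rests on few fragments at these times. Cd83 had 28.7 CPM against a first-set mean of 47.3 CPM in the labelled knock-out at 0 h, and 3.54 against 2.29 CPM at 24 h. These are descriptions of 1 library against 1 or 2 in each group, with no test, and what the sets are is not given in the labels.

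**Figure D4:**
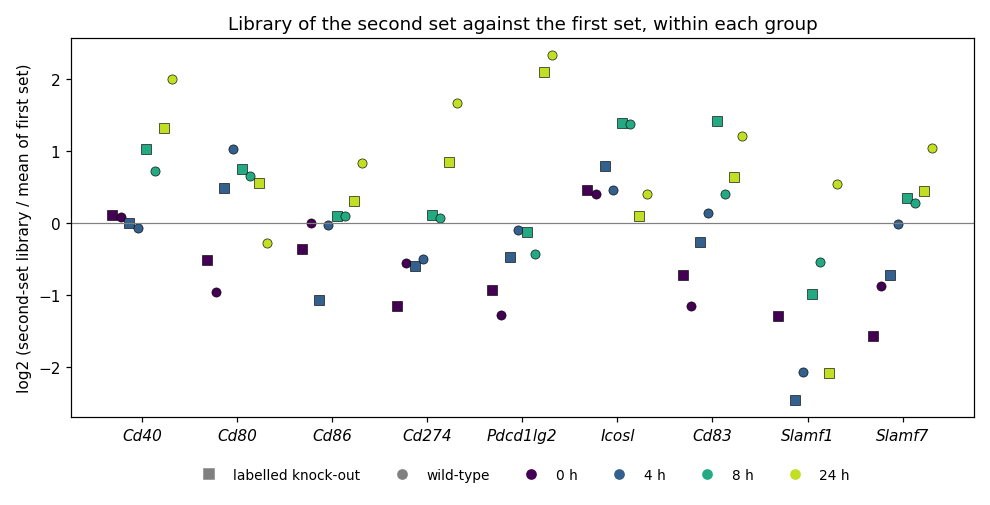
Log2 ratio of the second-set library to the mean of the first-set libraries in each of the 8 groups, for each gene; squares are labelled knock-out, circles wild type, and darker points earlier times. All points of Icosl lie above 0, and most of Slamf1 below, where the wild-type ratio at 0 h is missing because its count was 0.

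The genes whose course over the 23 libraries was most like that of each member were searched among 11279 genes with a mean of at least 1 CPM, by the root mean square difference of log2 CPM after centring each gene on its own mean. For Cd86 they were Glipr2 at 0.3 and the interferon-inducible Ifi204 at 0.31, and among the members Slamf7 at 0.35. For Slamf7 they were Fcgr4, a receptor for immunoglobulin G, at 0.39 and Ifi204 at 0.42. For Cd274 they were its opposite-strand partner AC119228.1 at 0.09, with which it shares exonic bases, and Gbp4, an interferon-induced GTPase, at 0.38. For Icosl they were Trim36 at 0.3 and the integrin subunit gene Itga4 at 0.33, and for Cd80 St18 at 0.36 and Btg3, an antiproliferative gene, at 0.48. Pdcd1lg2 was closest to Eng and Uba7 at 0.44 and 0.48. Cd40 was closest to Hdc, which encodes histidine decarboxylase, at 0.6 and to the adenosine receptor gene Adora2a at 0.62, and Cd83 to Kmo and Optn at 0.65 and 0.67. Slamf1 had no close match, with the cytokine gene Il19 at 1.01 and Hdc at 1.04. Apart from Cd86 and Slamf7, the nearest other member was farther away, at 0.84 to 1.24 for Pdcd1lg2, Icosl, Cd83, Cd274, Cd40 and Slamf1 and at 1.65 for Cd80.

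Other genes of the same pathways changed at 4 h in either genotype. Their counts are read against the background of 28% to 28.2% of all genes called higher and 34.1% to 34.8% lower. Of 10 genes that carry the CD40 signal, 8 rose and 1 fell in either genotype. Traf1, an adaptor of CD40, rose by 6.26 in the labelled knock-out and 5.85 in the wild type, Nfkb2 by 3.75 and 3.63, Birc3 by 2.95 and 3.37, and Birc2 by 2.32 and 2.59. Map3k14, the kinase of the alternative NF-kB route, fell by 1.86 and 1.43 (log2, edgeR). Of 9 genes of interferon and STAT signalling, 8 rose and 1 fell in either genotype. Jak2 rose by 4.95 in the labelled knock-out and 4.91 in the wild type, Irf1 by 3.45 and 3.48, and Stat2 by 3.19 and 3.03. The interferon gamma receptor gene Ifngr1 fell by 1.63 and 1.55. Map3k14 and Ifngr1 are named because each is the single gene of its list that fell, after their values were seen.

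The other ligand families gave mixed pictures. Of 12 further B7-type and checkpoint ligands, 8 were tested, and 5 rose and 2 fell at 4 h in either genotype. Lgals9, the galectin ligand of TIM-3, rose by 2.43 in the labelled knock-out and 2.27 in the wild type, Tnfrsf14 by 1.39 and 1.89 and Cd276 by 1.61 and 1.77. Vsir, which encodes VISTA, fell by 3.3 and 3.16 and Ceacam1 by 0.98 and 0.98. Of 7 costimulatory ligands of the tumor necrosis factor family, 6 were tested, and 5 rose in the labelled knock-out and 4 in the wild type. Tnfsf15 rose by 7.28 in the labelled knock-out and 8.03 in the wild type, Tnfsf4 (OX40 ligand) by 7.12 and 7.79, Tnfsf8 by 5.02 and 4.75, and Tnfsf9 (4-1BB ligand) by 2.55 and 1.74. Of 9 other SLAM family and adaptor genes, 8 were tested, and 2 rose and 2 fell in the labelled knock-out and 4 rose and 2 fell in the wild type. Slamf8 rose by 2.22 in the labelled knock-out and 2.49 in the wild type and Slamf9 by 2.57 and 2.26. Sh2d1b1, which encodes an adaptor of SLAM receptors, fell by 4.89 and 4.76 and Cd84 by 1.9 and 1.65. Of 4 genes that set how long these ligands stay at the surface, Marchf1, whose product removes CD86, rose by 2 and 2.72 and Cmtm6, whose product protects PD-L1, by 1.14 and 1.28. Cmtm4 fell by 1.61 and 1.66 and Marchf8 by 0.57 and 0.55.

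Of 5 genes of T cell surface proteins that bind the members' products, Ctla4 and Cd40lg were below the filter, and Cd28 was well detected in untreated cells. Cd28 was at 115 ± 55.1 CPM in the labelled knock-out and 87.2 ± 45.6 CPM in the wild type at 0 h (SD, n = 3 each). At 4 h it fell by 3.64 in the labelled knock-out (adjusted p = 8.69e-05) and fell by 3.47 in the wild type (adjusted p = 0.00013, edgeR). Pdcd1, which encodes PD-1, averaged 1.54 ± 1.36 CPM in the labelled knock-out and 2.82 ± 1.44 CPM in the wild type at 4 h, and 0 and 0.0189 ± 0.019 CPM at 0 h. Summed over 8 T and NK cell markers the level was at most 0.708 CPM in the labelled knock-out and 1.04 CPM in the wild type at 0 h, and over 7 B cell markers at most 2.75 and 2.41 CPM. The sum of the T and NK list was nearly all Lck, a kinase gene, at 17.6 ± 6.48 CPM in the labelled knock-out and 15.3 ± 0.916 CPM in the wild type at 4 h (SD, n = 3 each). The T and NK list reached 12 to 24.2 CPM in the labelled knock-out and 15.2 to 17.8 CPM in the wild type at 4 h, where Cd3d, Cd3e, Cd3g and Ncr1 were at 0 in every wild-type library and Ncr1 in every labelled knock-out library. The dendritic cell list summed to 23.4 to 40.8 CPM in the labelled knock-out and 21.6 to 36 CPM in the wild type at 4 h, against 2.94 to 4.03 CPM in the labelled knock-out and 3.27 to 4.11 CPM in the wild type at 0 h. Most of that sum was Xcr1, a chemokine receptor gene, at 25 ± 7.14 CPM in the labelled knock-out and 21.5 ± 6.32 CPM in the wild type at 4 h. Of 7 dendritic cell markers tested, 2 rose (Xcr1 and Ccr7), 1 fell (Flt3) and 4 were not called in either genotype. The list's part in the LPS response of the members was not tested.

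On average over the 4 times few genes of these lists other than neutrophil markers differed between the genotypes. Of the 18083 genes tested, 566 were called higher in the labelled knock-out and 568 lower. Vsig4, a complement receptor of the B7 family, was lower in the labelled knock-out by -1.77 (adjusted p = 0.0165, edgeR), at group means of 0.0227 to 0.149 CPM in the labelled knock-out and 0.0847 to 0.344 CPM in the wild type. Tnfsf4 was higher by 0.71 (adjusted p = 0.0484) and Ifngr1 by 0.51 (adjusted p = 0.018). The Tnfsf4 call was also lost with RLE and upper-quartile scaling, with no filter and within the first set (0.55 to 0.71, adjusted p = 0.0504 to 0.149). The Tnfsf4 call held in 6 of 23 fits without 1 library, the Vsig4 call in 23 of 23 and the Ifngr1 call in 22 of 23. Without libraries 13, 16, 19 and 22 the values were -1.6 for Vsig4 (adjusted p = 0.164), 0.83 for Tnfsf4 (adjusted p = 0.0832) and 0.39 for Ifngr1 (adjusted p = 0.258). Of the macrophage markers, Itgam was higher by 0.22 (adjusted p = 0.0368), a call that held in 8 of 23 fits without 1 library and was lost with no filter (0.22, adjusted p = 0.115) and without libraries 13, 16, 19 and 22 (0.19, adjusted p = 0.314). Within the first library set, where the labelled knock-out has 1 library at 24 h, the average value of Itgam was 0.18. Of 7 neutrophil markers tested, 5 were higher in the labelled knock-out, beside 6.27% of all genes called in either direction. Among them were Ltf by 1.32 (adjusted p = 5.1e-09, edgeR) and Ngp by 1.15 (adjusted p = 2.69e-08). The other 2 were not called.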

How the data were processed

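The deposited values are raw counts of fragments per gene. Per the file headers, the authors counted read pairs over exons with featureCounts 2.0.1 on the Ensembl release 101 annotation of GRCm38, without strand, and counted a pair over several genes for each of them. The submitters' processing notes name HISAT2, whose version is not given in the sources used here, and DESeq2. Libraries were made from total RNA, per the labels' protocols. Symbols came from GENCODE mouse release 21 (55141 identifiers matched, 260 did not). The column of exonic length was used for levels per kilobase.

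All 23 libraries entered a single edgeR 4.0.16 fit of 8 group means under R 4.3.3, with TMM scaling, filterByExpr and the quasi-likelihood F-test. Two-sided p-values were adjusted by the Benjamini-Hochberg method over the 18083 genes kept, with calls made below 0.05. The standard error was taken as the absolute log2 fold change over the root of F. The members and gene lists were chosen with earlier results of these data known. Genes named are the members, Selenow, up to 4 called genes with the largest fold change of each list described, and the 2 genes most like each member, searched where the mean level was 1 CPM or more, members and predicted loci aside. A gene under this rule is not reported here.

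Alternatives were DESeq2 1.42.0, scaling by RLE or upper quartile, keeping all genes or those with 1 CPM in 3 libraries, fits restricted to the groups in question, omission of each library in turn, omission of libraries 13, 16, 19 and 22 together, library set as a covariate, and the first library set alone. The sets rest on how log2 CPM deviated within groups over 10408 genes averaging 5 CPM or more, without the members. Deviations were compared between the genotypes at each time, not between times. The fit was checked on simulated counts. Between the genotypes it recovered 66% of 2-fold changes at 8 h, 41.7% at 24 h and 80.8% on average. False calls made up 2.68%, 6.56% and 2.23% of calls. A member without a call between the genotypes may therefore still differ. Replicate numbers run from 1 to 23, and none occurs in more than 1 group.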

Additional observations from a re-analysis of the deposited data

How the results depend on the processing

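The labels give no pairing, because no replicate number occurs in more than 1 group, and the main fit treated all 23 libraries as independent. The library set, found in the data and not in the labels, was used as a term in an alternative fit. Near wild-type Selenow also recurs, in 1 labelled knock-out library at each time. Whether libraries of different times are matched was not tested. If they are, p-values of the main fit, including those on average over the times, do not allow for it. Leaving out each library in turn gave 1 to 5 members called for wild-type cells at 8 h against 4 h, 4 to 7 for the labelled knock-out at 24 h against 0 h, 0 to 1 for the labelled knock-out against wild type at 8 h, at 24 h and on average, and counts within 1.5 times of the reported ones in the other comparisons. The count of 4 came without library 23. For wild-type cells at 8 h against 4 h the count was 1 without library 6, 2 without library 7 and 3 without library 4, 5 or 9. Within the first library set the counts were 6 for the labelled knock-out at 8 h against 4 h (56.5% of all genes) and 8 for wild-type cells (56.4%), 2, 5 and 5 between the genotypes at 0, 8 and 24 h and 2 on average, and for the interaction 5 at 8 h, 5 at 24 h and 6 jointly. With only the groups compared, 5 members were called in the labelled knock-out at 8 h against 4 h (50.7% of all genes). Between the genotypes, DESeq2 gave 2 at 24 h and 1 on average, and no filter on low counts and the library-set term each gave 1 and 1. The cause of these differences was not tested.

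Of 900 fold changes of members under the alternatives other than leaving out a library, 845 kept their direction and their side of the threshold, 11 lost and 36 gained a call, and 8 turned round. Of 2346 without 1 library, 2279 kept both, 40 lost and 17 gained a call, and 10 turned round. Cd80 in wild-type cells at 8 h against 0 h was 0.05 with RLE scaling and with DESeq2 and 0.06 with only the groups compared, against -0.02 reported. Within the first library set Cd274 in wild-type cells at 8 h against 4 h was -0.06, Cd83 in the labelled knock-out at 8 h against 0 h -0.6 (adjusted p = 0.00856, a call in the other direction), and Cd86 and Slamf1 in the labelled knock-out at 8 h against 4 h -0.17 and -0.12. Slamf1 in the labelled knock-out at 24 h against 0 h was -0.96 without libraries 13, 16, 19 and 22. Without 1 library the ranges of these values were -0.28 to 0.2 for Cd80, -0.06 to 0.2 for Cd274, -0.43 to 0.46 for Cd83, -0.13 to 0.32 for Cd86, and -0.38 to 0.45 at 8 h and -0.53 to 2.05 at 24 h for Slamf1. The largest shift of the median of all genes with another scaling was to -0.11 on the log2 scale, for the labelled knock-out at 24 h against 0 h with upper-quartile scaling, against 0 with TMM. Depth limits Pdcd1lg2 and the untreated and 24 h levels of Slamf1, which rest on at most 36 and 14 fragments a library.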
